A study of Mus musculus with 2 samples.

Results

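Mitochondrial fatty acid oxidation and the last step of ketone body synthesis were followed through 7 genes, Bdh1, Cpt1a, Cpt2, Acadm, Acadvl, Hadha and Hadhb, in the intestine of mouse embryos. The genes were taken by name, each matched to its Ensembl identifier, and are 7 of the 43346 Ensembl gene identifiers measured. The tissue was the whole intestine of B6NCrl embryos at embryonic day 16.5, an age at which the gut tube carries villi but no milk fat has yet been taken in. The only group held 2 total RNA-seq libraries, replicate 2 and replicate 1, made with 10 ng of RNA longer than 200 nt each. No allele, agent or treatment is named in the labels. Each library came from a separate pool of male and female embryos listed under a shared donor identifier, with 41 embryos behind replicate 2 and an unstated number behind replicate 1. Whether the pools came from separate litters is not stated in the labels either, so spreads between them describe these samples. There is no second condition, and the comparisons below are between genes within a library and between the pools, with no test.

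Long-chain fatty acids are oxidised in mitochondria after they have been joined to coenzyme A and carried across the inner membrane as carnitine esters. Each turn of the oxidation spiral then removes an acetyl-CoA through dehydrogenation, hydration, a further dehydrogenation and thiolysis, with different enzymes for long and for shorter chains. Where acetyl-CoA accumulates it can be turned into acetoacetate, which Bdh1 reduces to 3-hydroxybutyrate, the main ketone body in blood. The epithelium of the suckling small intestine is known for fat oxidation and ketone body synthesis alongside the liver.

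Both libraries carried the tissue's own markers. All 6 smooth muscle markers and all 6 epithelial markers were detected, where detected means at least 1 TPM (the deposited level, scaled for transcript length and library size) in both libraries. The libraries held 41480301 expected counts (estimated reads) in replicate 2 and 42040766 in replicate 1, of which ERCC spike-ins took 1.74% and 1.81%. All 8 liver and all 8 exocrine pancreas markers were detected as well, with summed levels of 382 TPM in replicate 2 and 577 TPM in replicate 1 for liver and 6844 and 5153 TPM for pancreas. In a bulk sample, fewer cells of a type and less RNA per cell cannot be told apart.

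All 7 genes were detected, against 62.0% of the 21461 protein-coding genes outside the mitochondrial genome. Their levels summed to 1264 TPM in replicate 2 and 1136 TPM in replicate 1. The median of the 7 was 161 TPM in replicate 2 and 147 TPM in replicate 1, while the median of the 13496 protein-coding genes at a mean of at least 1 TPM was 16.6 and 16.5 TPM. The genes ranked between the 71.5th percentile of those genes, for Cpt1a, and the 96.3rd, for Hadhb. Hadhb stood 7.62-fold above Cpt1a on the TPM scale. The order by mean level was Hadhb, Bdh1, Hadha, Acadvl, Cpt2, Acadm and Cpt1a. Neighbours in this order were called apart where the log2 ratio of their TPM had the same sign in both libraries and its mean exceeded 3 SD. With 2 libraries no p is given, since the smallest exact two-sided sign-flip p is 0.5. By this rule 3 of 6 neighbouring pairs were apart, namely Hadha over Acadvl (log2 ratio 0.40 ± 0.0020, SD, n = 2), Acadvl over Cpt2 (0.29 ± 0.0019) and Acadm over Cpt1a (1.63 ± 0.059). The other 3 were not apart: Hadhb over Bdh1 at 0.26 ± 0.12, Bdh1 over Hadha at 0.32 ± 0.11 and Cpt2 over Acadm at 0.04 ± 0.030. The place of Bdh1 depended on the unit. Bdh1 over Hadha was -0.053 in counts not divided by length and was called apart with posterior mean TPM (0.33 ± 0.11). Hadhb over Bdh1 was called apart, at 0.81 ± 0.083, without transcripts under 1000 bases. The 3 gaps called apart in TPM stayed apart but changed in size. Without the short transcripts Hadha over Acadvl was 0.18, Acadvl over Cpt2 0.068 and Acadm over Cpt1a 1.56. In undivided counts they were 0.61, 0.14 and 0.47. The SDs of these gaps do not cover this dependence.

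**Figure D1:**
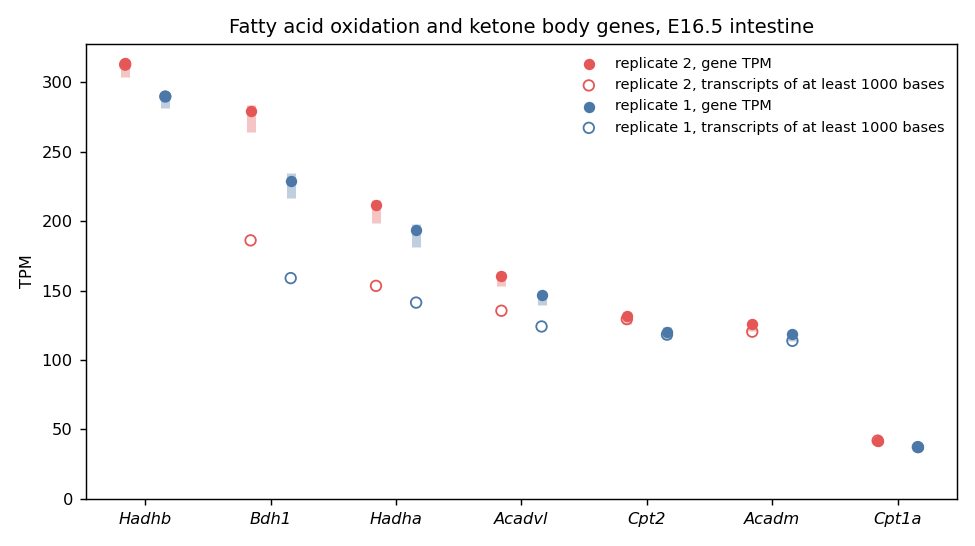
TPM (vertical axis) of the 7 genes (horizontal axis) in replicate 2 (red) and replicate 1 (blue), with filled points for the deposited gene value, shaded bars for the deposited interval of TPM, whose level is not stated in the files, and open circles for the sum over transcripts of at least 1000 bases. Hadhb was highest and Cpt1a lowest in both libraries, and the open circles lie below the filled points most clearly for Bdh1, Hadha and Acadvl.

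The carnitine shuttle was represented by its outer and inner transferases. Exon numbers here and below are those of the transcript with the largest share of TPM, in GENCODE M21. Cpt1a (ENSMUSG00000024900.4; mm10 chromosome 19, 3322334 to 3385733, plus strand, 19 exons) encodes the liver form of carnitine palmitoyltransferase 1, the enzyme of the outer membrane that malonyl-CoA inhibits and that controls entry into oxidation. It had 41.98 TPM in replicate 2 and 37.33 TPM in replicate 1, from 5039 and 4614 counts. Cpt2 (ENSMUSG00000028607.12; chromosome 4, 107903981 to 107923610, minus strand, 5 exons) encodes the inner membrane enzyme that returns the acyl group to coenzyme A. It had 132 TPM in replicate 2 and 120 TPM in replicate 1. Cpt1a was the lower of the pair in both libraries, with Cpt1a over Cpt2 at a log2 ratio of -1.67 ± 0.029.

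Among the isoforms of the first step, Cpt1a was the main form. Cpt1b, the muscle form, had 0.41 TPM from 33 counts in replicate 2 and 0.62 TPM from 41 counts in replicate 1, and Cpt1a exceeded it 102-fold and 60.2-fold. Cpt1c, the brain form, had 10.4 and 9.89 TPM, and Cpt1a stood 4.02-fold and 3.77-fold above it. Of 8 skeletal and heart muscle markers 4 were detected, led by Tnnt2 at 21.4 ± 1.88 TPM with Myod1 lowest at 0.070 ± 0.042 TPM. The carnitine-acylcarnitine carrier Slc25a20 had 99.4 and 94.5 TPM and the peroxisomal transferase Crot 65.9 and 53.8 TPM. Of the 8 genes of the shuttle 7 were detected, and Cpt1b was the lowest.

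Genes of malonyl-CoA control lay on both sides of the median of protein-coding genes at a mean of at least 1 TPM. Acaca, Acacb and Prkaa2 were below that median, and Mlycd and Prkaa1 were above it. Acaca, which makes malonyl-CoA in the cytosol, had 7.30 TPM in replicate 2 and 7.05 TPM in replicate 1, and Cpt1a stood 5.52-fold above it (log2 2.46 ± 0.084). Acacb, the form attached to mitochondria, had 1.21 and 0.98 TPM and missed the detection level in replicate 1. Mlycd, which degrades malonyl-CoA, had 19.4 and 17.6 TPM. Prkaa1 and Prkaa2 encode alternative catalytic subunits of the AMP-activated kinase that inhibits acetyl-CoA carboxylases. Prkaa1 had 21.2 and 19.6 TPM, and Prkaa2 had 6.16 and 5.41 TPM.

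The acyl-CoA dehydrogenases start each turn, and the 2 members of this family act on different chain lengths. Acadvl (ENSMUSG00000018574.10; chromosome 11, 70010183 to 70015411, minus strand, 20 exons), the very long-chain enzyme of the inner membrane, had 161 TPM in replicate 2 and 147 TPM in replicate 1. Acadm (ENSMUSG00000062908.8; chromosome 3, 153922357 to 153944632, minus strand, 12 exons), the medium-chain enzyme of the matrix, had 126 TPM in replicate 2 and 119 TPM in replicate 1. Acadvl exceeded Acadm 1.26-fold (log2 0.33 ± 0.032), and the values of the 2 genes did not overlap. Both were below the long-chain enzyme Acadl, which had 303 and 264 TPM and was the highest of the 8 genes in the family. The log2 ratio over Acadl was -1.21 ± 0.079 for Acadm and -0.88 ± 0.047 for Acadvl. Acadm was close to the short-chain enzyme Acads, which had 138 and 128 TPM, at a log2 ratio of -0.13 ± 0.015 that the rule called apart in TPM but not in counts left undivided by length. Acad9, which also serves the assembly of respiratory complex I, had 29.6 and 31.4 TPM, and Acadvl stood 5.03-fold above it. All 8 genes of the family were detected, with Acad10 the lowest at 7.41 ± 1.10 TPM.

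Electrons from these dehydrogenases pass to the electron transfer flavoprotein. Its subunit genes were detected at 498 TPM in replicate 2 and 485 TPM in replicate 1 for Etfb and at 296 and 302 TPM for Etfa. Etfdh, which passes the electrons on to ubiquinone, had 102 and 96.7 TPM.

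The later steps for long chains are carried out by the mitochondrial trifunctional protein, whose alpha subunit Hadha holds the hydratase and hydroxyacyl-CoA dehydrogenase activities and whose beta subunit Hadhb is the thiolase. Hadha (ENSMUSG00000025745.7; chromosome 5, 30118304 to 30155162, minus strand, 20 exons) had 211 TPM in replicate 2 and 193 TPM in replicate 1. Hadhb (ENSMUSG00000059447.9; chromosome 5, 30155248 to 30184593, plus strand, 16 exons) had 314 TPM in replicate 2 and 290 TPM in replicate 1. The alpha subunit gene was lower in both libraries, and the ratio barely differed between them, with Hadha over Hadhb at 0.674 in replicate 2 and 0.666 in replicate 1. On the log2 scale this was -0.58 ± 0.012, and it was -1.03 when transcripts under 1000 bases were left out.

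These subunit genes lie head to head, and their annotated starts face each other across 85 bases. The Hadha start at its edge is that of Hadha-205, which held 17.6% of the gene's TPM, whereas Hadha-201, with 54.4%, starts in GENCODE M21 at position 30154976, 271 bases short of Hadhb. The stretch between the outermost starts is shown because it separates the annotated genes and because it holds the motif shared by their promoter windows. It is chr5:30155163-30155247 on the plus strand of GRCm38.p6 (RefSeq), with the outermost Hadha start to its left and the Hadhb start to its right.
Hadha-Hadhb gap: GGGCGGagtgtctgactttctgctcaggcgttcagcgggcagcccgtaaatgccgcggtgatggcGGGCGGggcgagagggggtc
Capitals mark GGGCGG, the GC box letters, which occurred 2 times. The GC content of the stretch was 69.4%. The longer 300-base promoter windows had 58.7% for Hadha and 60.7% for Hadhb, beside a median of 52.7% over all windows. The RefSeq windows of the 2 genes share 228 of their 300 bases, so their motifs are not independent of each other.

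The matrix enzymes that carry out the same steps on shorter chains were at similar or higher levels. Echs1, the short-chain hydratase, had 185 TPM in replicate 2 and 184 TPM in replicate 1, and Hadha over Echs1, at a log2 ratio of 0.13 ± 0.087, was not called apart and turned to -0.33 without transcripts under 1000 bases. Hadh, the shorter-chain hydroxyacyl-CoA dehydrogenase, had 373 and 316 TPM, and Hadha over Hadh was -0.76 ± 0.081. Acaa2, the matrix thiolase, was the highest gene of the spiral at 685 and 597 TPM, with Hadhb over Acaa2 at -1.08 ± 0.061. All 6 genes of these steps were detected, and the lowest, Hsd17b10, which acts on branched and short chains, had 166 and 178 TPM. The auxiliary enzymes for unsaturated chains were detected in 4 of 4 cases, from Ech1 at 310.2 ± 17.4 TPM, Eci2 at 148 ± 3.61 and Eci1 at 121 ± 1.92 to Decr1 at 38.2 ± 1.22.

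Bdh1 (ENSMUSG00000046598.10; chromosome 16, 31422280 to 31458901, plus strand, 7 exons) encodes the 3-hydroxybutyrate dehydrogenase of the inner membrane, which works in both directions. It had 279 TPM in replicate 2 and 229 TPM in replicate 1, from 12843 and 11028 counts. Of the 7 genes, Bdh1 had the widest spread between pools, with an SD of 35.4 around a mean of 254 TPM. The deposited intervals, 264 to 284 TPM in replicate 2 and 216 to 235 TPM in replicate 1, did not overlap. The same held for each of the 7 genes, so it does not set Bdh1 apart. The share of all genes with such intervals was not computed, so no difference between the pools is read from them.

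Genes for the making and use of ketone bodies were measured beside it. Acat1, the mitochondrial acetoacetyl-CoA thiolase that serves both directions, had 148 TPM in replicate 2 and 143 TPM in replicate 1. Oxct1, the transferase that activates acetoacetate outside the liver, had 156.5 TPM in replicate 2 and 181 TPM in replicate 1. Oxct1 was lower and Bdh1 higher in replicate 2, and Bdh1 over Oxct1 was 1.78-fold in replicate 2 and 1.27-fold in replicate 1. This ratio was not called apart (log2 0.59 ± 0.35). The cytosolic thiolase Acat2 had 220.1 and 216 TPM. The testis forms Oxct2a and Oxct2b, near-identical copies among which reads may be split, were not detected, and Oxct2a had the lowest value of the list at 0.050 and 0 TPM. Of the 7 genes of use 5 were detected. The monocarboxylate transporters through which ketone bodies cross membranes were detected in 4 of 4 cases, from Slc16a3 at 75.1 ± 5.40 TPM, Slc16a1 at 41.4 ± 0.276 and Slc16a6 at 25.8 ± 4.33 to Slc16a7 at 2.10 ± 0.014.

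**Figure D2:**
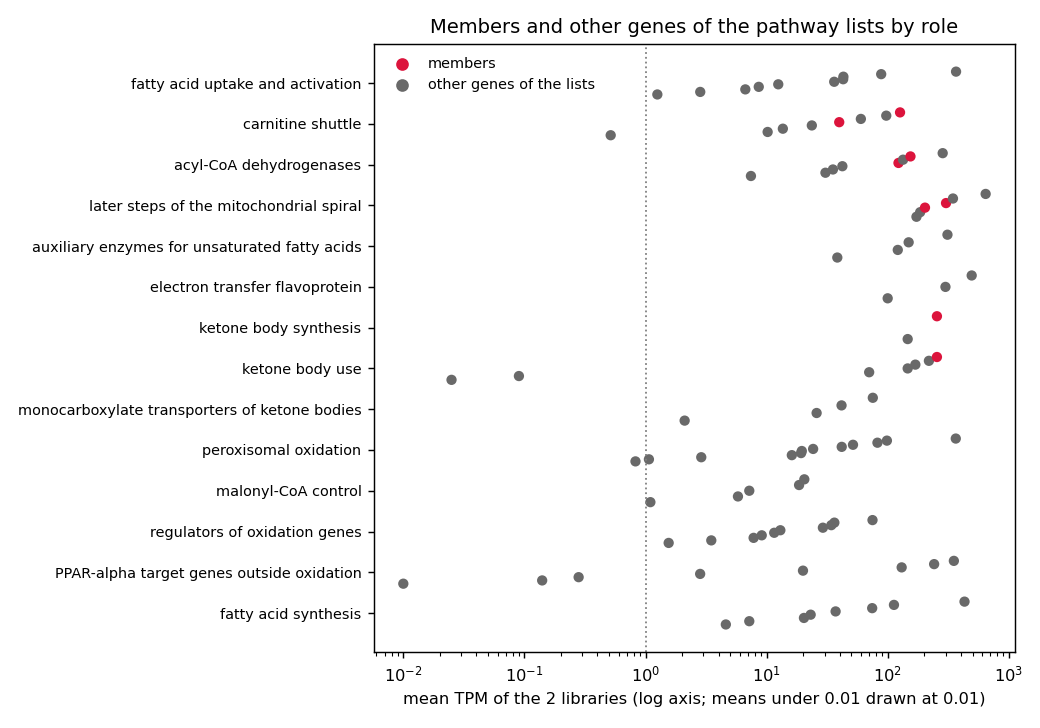
Mean TPM of the 2 libraries on a log axis for every gene of the pathway lists (1 row a list, 1 point a gene), with the 7 genes in red, the others in grey and a dotted line at 1 TPM. Bdh1 is the highest point of the rows for ketone body synthesis and use. Cpt2 is the highest of the carnitine shuttle, and Cpt1a, at 39.7 TPM, lies in its middle. Acadvl and Acadm lie below Acadl in the dehydrogenase row, and Hadhb and Hadha lie below Acaa2 and Hadh in the row of later steps.

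Bdh1 transcripts began at several annotated places. Bdh1-201, which starts farthest upstream, held 36.8% of the gene's TPM in replicate 2 and 38.4% in replicate 1. Transcripts that start from 6468 bases downstream, Bdh1-202, Bdh1-203 and Bdh1-205, held 51.4% and 51.0%. Of these, Bdh1-205 is typed in GENCODE M21 as a retained intron, with a length of 438 bases. It held a mean of 20.7% of TPM but 4.3% of counts. A later start, used by Bdh1-206, held 11.8% and 10.6%. The shares differed little between pools, at 37.6% ± 1.15 for the upstream start and 51.2% ± 0.297 for the downstream group. In expected counts, which are not divided by length, the downstream group held 58.0% in replicate 2 and 57.6% in replicate 1. The transcript with the largest share depended on the unit, since Bdh1-201 led in TPM, whereas the longer Bdh1-203, at 27.2% of TPM, led in counts with 50.7%.

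The sequences before both starts are shown because the transcript shares divide the gene's RNA between them. They are the bases of the RefSeq windows (GRCm38.p6, plus strand) that lie before the annotated starts, at chr16:31422047-31422279 and chr16:31428503-31428747.
Bdh1 upstream start: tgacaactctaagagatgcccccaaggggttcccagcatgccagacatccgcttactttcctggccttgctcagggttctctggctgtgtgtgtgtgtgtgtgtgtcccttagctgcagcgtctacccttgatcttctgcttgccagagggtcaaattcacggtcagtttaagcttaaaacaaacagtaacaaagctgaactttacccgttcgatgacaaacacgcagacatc
Bdh1 downstream start: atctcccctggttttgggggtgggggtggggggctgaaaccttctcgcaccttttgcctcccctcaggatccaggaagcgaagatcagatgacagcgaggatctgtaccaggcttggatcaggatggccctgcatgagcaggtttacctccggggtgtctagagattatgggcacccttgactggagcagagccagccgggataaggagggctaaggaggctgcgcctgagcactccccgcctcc
Neither printed stretch held any of the motifs searched, so no letters are in capitals. The GC content was 49.8% before the upstream start and 60.4% before the downstream start.

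**Figure D3:**
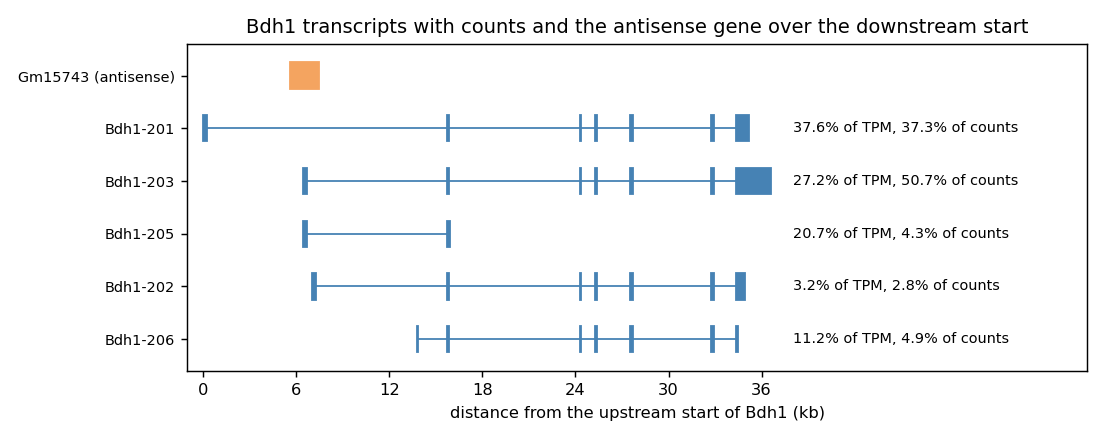
Exons (boxes) of the Bdh1 transcripts that received counts and of the antisense gene Gm15743 (orange), by distance in kb from the upstream start, with each transcript's mean share of the gene's TPM and expected counts printed at the right. Gm15743 covers the downstream start, from which the largest share of the counts, 50.7%, was assigned to Bdh1-203.

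Gm15743 lies over the downstream start on the opposite strand and overlaps Bdh1 along 1901 bases. It had 2.65 TPM in replicate 2 and 2.40 TPM in replicate 1. Acadvl likewise overlaps the oppositely oriented Dvl2, a Wnt signalling gene at 22.1 and 20.3 TPM, along 2119 bases. Hadha overlaps Garem2 by 75 bases, at 0.34 and 0.48 TPM. The labels do not say whether strand was kept, so reads from these overlaps cannot be told apart.

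For each of the 7 genes the transcript with the largest share of TPM was the same in both libraries. Cpt1a had a single transcript in the annotation used for counting, so its share was fixed at 100%. Acadm-201 held 95.8% ± 0.219 of its gene's TPM, Acadvl-202 83.5% ± 0.191 and Cpt2-201 81.6% ± 1.36. Hadhb was divided between Hadhb-201 at 66.2% ± 0.276 and Hadhb-203 at 31.3% ± 0.247, transcripts of 2033 and 2046 bases. Hadha-201 held 54.4% ± 0.636 and Hadha-205 17.6% ± 0.686. In the later annotation used for names Hadha-201 is typed as a processed transcript under another version, and its type in the annotation used for counting was not used here.

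Short transcripts weighed on the TPM of some genes far more than on their counts. Transcripts under 1000 bases made up 33.3% of Bdh1 TPM in replicate 2 and 30.6% in replicate 1, but 9.70% and 8.72% of its counts. For Hadha the shares were 27.4% and 26.9% of TPM against 3.23% and 3.12% of counts, most of it in the 323-base Hadha-204. For Acadvl they were 15.6% and 15.3% of TPM against 4.19% and 4.02% of counts, with a mean of 12.4% of TPM in Acadvl-203, typed as a retained intron. A read on a short transcript adds more TPM than a read on a long one, so the level of these 3 genes depends on how reads were divided among transcripts. Without the short transcripts the mean levels were 173 TPM for Bdh1, 147 TPM for Hadha and 129.8 TPM for Acadvl, while Hadhb, at 301 TPM, stayed near its value.

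**Figure D4:**
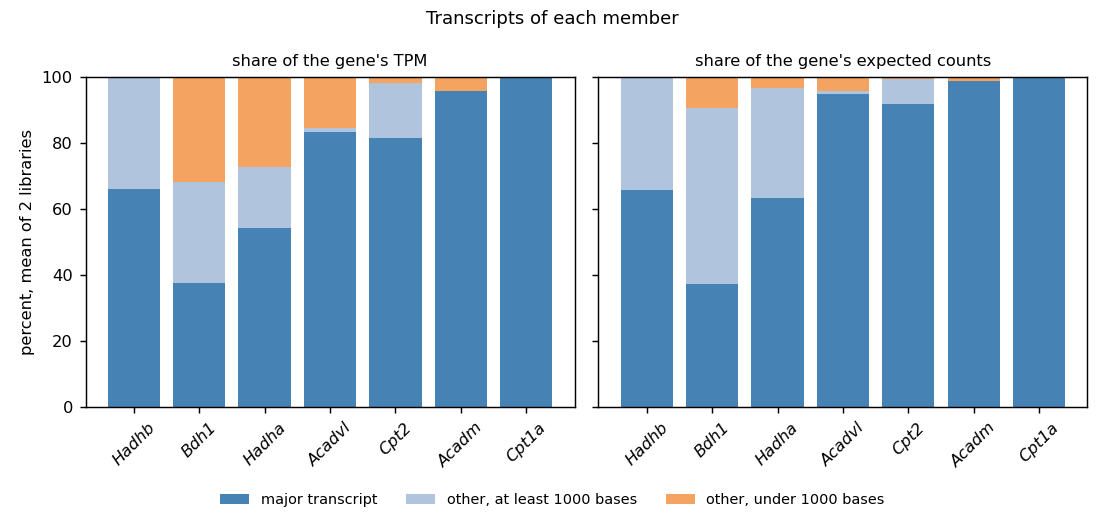
Stacked bars of each gene's transcripts as a percent of its TPM (left) and of its expected counts (right), mean of the 2 libraries: the transcript with the largest share of TPM, other transcripts of at least 1000 bases, and other transcripts under 1000 bases (orange). The orange part of Bdh1, Hadha and Acadvl is large in TPM and small in counts.

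Of the 85 other genes in the 14 pathway lists, 76 were detected, and 9 were not. Uptake and activation were led by Acsl5, an acyl-CoA synthetase, at 429 TPM in replicate 2 and 302 TPM in replicate 1, followed by Acsl3 at 95.5 and 80.5 TPM and the transporter Slc27a4 at 49.1 and 36.7 TPM. All 10 genes of this list were detected, down to Acsl6 at 1.24 and 1.26 TPM. Among the regulators, 10 of 10 were detected. Hnf4a, a nuclear receptor of the gut and liver epithelium, had 75.4 and 73.9 TPM, Esrra, a nuclear receptor of oxidative metabolism, had 38.7 and 33.6 TPM, and Nrf1, a factor of nuclear genes for mitochondria, had 31.7 and 36.5 TPM. Ppard was lowest at 1.55 ± 0.014 TPM. Ppara, the fatty acid receptor known to induce oxidation genes in liver, had 31.8 and 26.3 TPM and was added to those named with its values known.

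Peroxisomes shorten the longest chains by a parallel route. Of 12 genes of this route 10 were detected, led by Scp2, a sterol carrier and thiolase, at 392 TPM in replicate 2 and 335 TPM in replicate 1. The thiolase Acaa1a, which has a near-identical copy in Acaa1b, had 97.3 and 99.0 TPM, and the bifunctional Hsd17b4 had 86.2 and 77.7 TPM. The transporter Abcd2 was lowest at 0.825 ± 0.078 TPM.

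The promoter windows of RefSeq, 250 bases before to 50 bases after each start, matched all 7 genes, with 8 windows because Bdh1 had a pair. The Cpt1a window is at a RefSeq start that lies inside the gene as GENCODE annotates it. Motifs were searched on both strands. AGGTCA, the core letters bound by nuclear receptors, stood in 3 of the 8 windows (Acadm, Acadvl and Cpt1a) and in 16.3% of 32851 windows. The longer AAGGTCA, which contains AGGTCA, stood in 1, that of Acadm, and in 4.72% of all. GGGCGG stood in 5 windows, namely the downstream window of Bdh1, past the printed bases, and those of Cpt1a, Cpt2, Hadha and Hadhb, and in 35.7% of all windows. CCAAT stood in 1, that of Cpt1a, and in 37.4% of all, and TATAAA in 0 and in 13.6% of all. These matches describe letters only.

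Between the pools, all 7 genes had a higher TPM in replicate 2, as did 46.7% of the 13496 protein-coding genes at a mean of at least 1 TPM. Relative to the median of those genes, the log2 ratios ran from 0.10 for Acadm to 0.30 for Bdh1, with Cpt1a at 0.18. The median of the 7 was 0.14, and the quartiles of all protein-coding genes ran from -0.11 to 0.13 and their central 95% from -0.44 to 0.57. None of the 7, 0 in all, passed 1.5-fold, beside 3.85% of those protein-coding genes in either direction. Of the 76 other pathway genes detected, 55 were higher and 21 lower in replicate 2 by this centred ratio. Centring places 50% of all those protein-coding genes on the higher side. The other pathway genes had a median of 0.10, with 0 past 1.5-fold. Each of the 7 ratios lay inside the central 95% of protein-coding genes.

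Markers of several cell types differed more between the pools than the 7 genes did. The absorptive epithelium list was higher in replicate 2 for 8 of 8 genes, with a median log2 ratio of 0.45 and a summed level of 14001 TPM in replicate 2 and 9711 TPM in replicate 1, from Fabp1 at 5228 and 3826 TPM to Lct at 68.5 and 38.7 TPM. The wider epithelial list, from Lgals4 at 2141 ± 106 TPM to Cdh1 at 150.1 ± 6.45 TPM, had a median of 0.07 and sums of 5668 and 5519 TPM. Exocrine pancreas markers were higher in replicate 2 for 8 of 8 genes at a median of 0.51, from Pnliprp1 at 2330 and 1975 TPM to Cpb1 at 119 and 77.0 TPM. Liver markers were lower in replicate 2 for 8 of 8 genes at a median of -0.64, from Afp at 185 and 276 TPM to Apoh at 4.45 and 9.81 TPM. Liver oxidises fat and makes ketone bodies too. The part of these cell types in the levels of the 7 genes was not tested.

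The remaining lists differed in size and direction. Red blood cell markers were lower in replicate 2 for 6 of 6 genes at a median of -0.31, from Hba-a2 at 7747 and 9518 TPM to Slc4a1 at 9.51 and 16.5 TPM, and summed to 17717 and 21658 TPM. Proliferation markers were lower for 6 of 6 genes at a median of -0.15, from Cdk1 at 288 and 321 TPM to Mki67 at 17.1 and 18.9 TPM, and summed to 956 and 1091 TPM. Mesenchyme markers, from Sparc at 1457 ± 28.9 TPM to Pdgfra at 22.5 ± 1.35 TPM, had a median of 0.06 and sums of 4262 and 4138 TPM. Smooth muscle markers, from Actg2 at 1484 ± 13.7 TPM to Myh11 at 117 ± 4.31 TPM, had a median of -0.01 and sums of 4330 and 4476 TPM. Skeletal and heart muscle markers had a median of 0.03 and summed to 58.4 TPM in both. Of 4 brown fat markers 0 were detected, Ucp1 had 0 counts in both libraries, and the sums were 0.070 and 0.24 TPM. Of 6 kidney and adrenal markers 2 were detected, Lrp2 at a log2 ratio of 0.10 and Cyp11a1 at -1.77. Their median of -0.83 describes neither gene. Cyp11a1 was highest at 5.51 and 19.2 TPM, Umod had 0 counts in both, and the sums were 8.06 and 27.4 TPM. Star, at 0.57 TPM in replicate 2 and 6.26 TPM in replicate 1, missed the detection level in replicate 2.

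**Figure D5:**
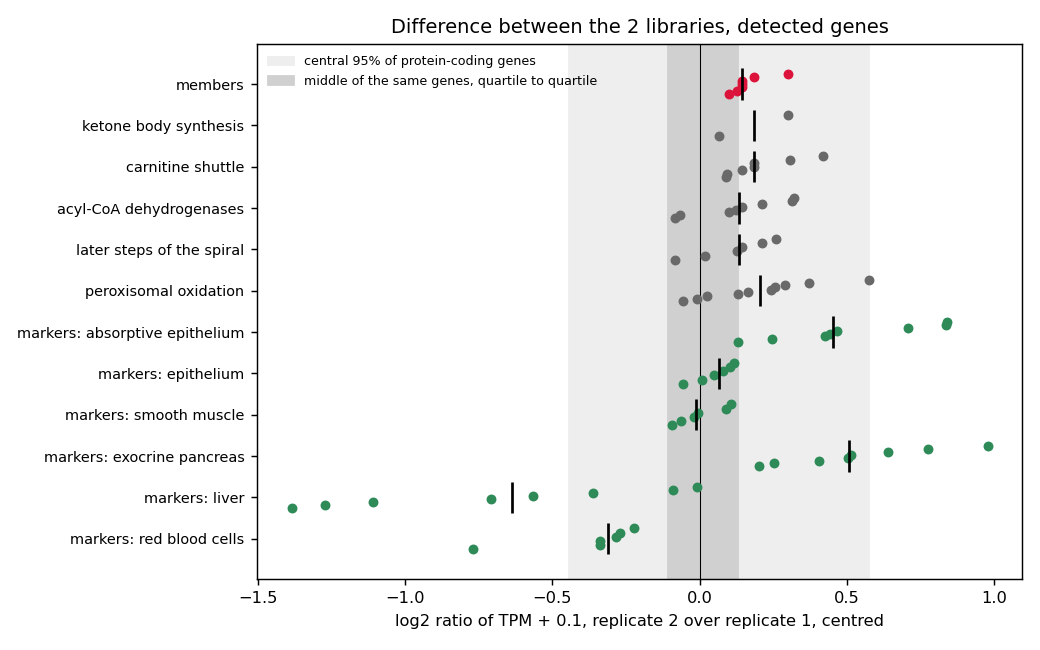
Log2 ratio of TPM + 0.1 in replicate 2 over replicate 1, relative to the median protein-coding gene (horizontal axis), for the detected genes among the 7 (red), 5 pathway lists (grey) and 6 marker lists (green), with the median of each list as a black bar and bands for the quartiles and the central 95% of protein-coding genes. The 7 genes lie between 0.10 and 0.30, the absorptive epithelium median is at 0.45 and the liver median at -0.64.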

How the data were processed

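Total RNA-seq of E16.5 mouse intestine gave 2 libraries of 1 group, each with tables of genes and of transcripts. Per the file headers, the authors deposited expected counts, which are raw estimates of reads with shared reads divided. The TPM the authors deposited is corrected for effective length and includes the spike-ins in its total. The deposited percent column holds isoform shares within a gene. The deposited interval bounds are a signal on the TPM scale, computed by the authors beside posterior means, per the file headers. Per the text deposited with the tables, features were those of GENCODE M4 on mm10, and neither aligner nor quantifier is named there. Symbols, types, exons and coordinates came from GENCODE M21 (mm10), which matched 42462 of 43346 gene identifiers (98.0%) and 164 of 164 listed symbols. A further 26249 features that name no gene held 0.000157% of counts in replicate 2 and 0.000147% in replicate 1 and were left out.

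Levels were summarised as mean ± SD. Log2 ratios between libraries used TPM + 0.1, minus the median (-0.01) of protein-coding genes at a mean of at least 1 TPM, mitochondrial genes left out. The 14 gene pairs and the 6 neighbours were called apart by the 3 SD rule, and 12 of the 14 pairs were. The log2 ratio between libraries and its 1.5-fold call were tested on simulated data, and the 3 SD rule was not. Count precision covers counting error only, since reads are not independent molecules. The members and lists were chosen with earlier results of these data known. Named were all 7 genes, their partners, the 3 highest and the lowest of each pathway list and the highest and lowest of each marker list. Lrp2, Star and Prkaa2 were named in addition, with their values known. Some genes that these lists and pairs first held were left out and are not reported here. Tools were Python 3.11.15, numpy 2.4.6, pandas 2.3.3 and matplotlib 3.10.9. Alternative scalings came from edgeR 4.0.16 (TMM) and DESeq2 1.42.0 size factors under R 4.3.3, after rounding the expected counts to whole numbers.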

Additional observations from a re-analysis of the deposited data

How the results depend on the processing

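All 7 genes stayed detected at a minimum of 5 TPM, with posterior mean TPM and with each library left out, and 0 passed 1.5-fold between libraries with a pseudocount of 1, uncentred, or scaled by TMM, DESeq2 or spike-ins. With TPM rescaled without spike-ins, mitochondrial genes and short features, mean levels were 43.2 TPM for Cpt1a, 137 for Cpt2, 133 for Acadm, 167 for Acadvl, 220.3 for Hadha and 329 for Hadhb. With transcripts of at least 1000 bases alone, an alternative chosen after seeing the data, they were 173 TPM for Bdh1, 117 for Acadm, 129.8 for Acadvl and 147 for Hadha. In expected counts not divided by length, 5 of 6 neighbours were apart in place of 3. Acadm over Acads was then no longer apart, Hadhb over Bdh1, Cpt2 over Acadm and Hadha over Echs1 became so, and Bdh1 over Hadha was -0.053 in place of 0.32. Without short transcripts Hadhb over Bdh1 and Hadha over Echs1 became apart, at 0.81 and -0.33. With posterior mean TPM Bdh1 over Hadha became apart. With posterior mean TPM the major shares were 95.3% for Acadm-201, 82.7% for Acadvl-202 and 65.5% for Hadhb-201. The cause of these changes was not tested. No paired analysis was possible because both libraries are of the same group. With 2 libraries, spreads are uncertain, whereas each of the 7 genes had at least 4614 counts in each library.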

Other observations

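Fatty acid synthesis genes, which work against oxidation, were detected in 8 of 8 cases. Scd2, a stearoyl-CoA desaturase, had 472 TPM in replicate 2 and 386 TPM in replicate 1, Acly, which makes cytosolic acetyl-CoA, had 111 and 113 TPM, and the lipogenic regulator Srebf1 had 80.3 and 68.1 TPM. Scd1, the desaturase known from adult liver and fat, was lowest at 4.90 and 4.29 TPM. The list's median mean level was 30.0 TPM, beside 154 TPM for the 7 oxidation and ketone body genes, which are a chosen set. Medians of whole oxidation lists lay on both sides of the synthesis median. They were 22.3 TPM for peroxisomal oxidation, 31.6 for the carnitine shuttle, 82.2 for the dehydrogenases and 252 for the later steps.

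Genes known as targets of the receptor PPAR-alpha in liver, outside oxidation itself, were uneven, with 5 of 8 detected. Ucp2, an inner membrane carrier, had 339 TPM in replicate 2 and 362 TPM in replicate 1, the lipid droplet coat gene Plin2 had 269.6 and 212 TPM, and the factor Creb3l3 had 154 and 106 TPM. The hepatokine Fgf21 had 2 and 5 counts, and Cyp4a14, an omega-hydroxylase gene with close relatives, had 0 counts in both.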
